A study of Pimephales promelas with 32 samples.

Results

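RNA-seq was used to compare single whole fathead minnow larvae (Pimephales promelas, a freshwater fish of toxicity tests) after 48 h with the insecticide bifenthrin at 3.2 µg/L (10 larvae) or in control water (11 larvae). Both groups received 0.002% DMSO as the vehicle, and they make up 21 of the 32 larvae of the series. The other 11 larvae received copper sulfate, and their values are given only where named. They were still part of the main fit, so the p-values for bifenthrin against control rest on a fit over all 32 larvae. Larvae were assigned to their group by title. The treatment protocol gives the larvae as 96 h post hatch and the age label as 48 h, and this difference is not resolved here. Total counts per larva ranged from 11440484 to 16007606 in bifenthrin larvae and from 10655113 to 17993699 in control larvae. Larvae came from 5 beakers per treatment, at least 2 larvae from each, and the labels do not say which larva came from which beaker, so larvae that shared a beaker would make the p-values too small. Because whole larvae were used, fewer cells of a type and less RNA per cell cannot be told apart.

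Bifenthrin is a pyrethroid. Pyrethroids keep the sodium channels of excitable cells open for longer, which leads to repeated firing. Fish are sensitive to them, and fish larvae are still growing, so that many of their tissues hold dividing cells.

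The deposited table pairs each gene model with UniProt accessions or enzyme class numbers and with no protein names. Accessions were translated to names from general knowledge of UniProt entries, only for 380 entries held to be certain, and no name table was at hand to check them against. These entries are mostly human, mouse or zebrafish proteins, and how they were assigned to minnow models is not given in the sources used here. A name below therefore means a model that carries that protein's entry, and does not establish the minnow gene. The 380 entries cover 458 of the 21174 models tested. Of the names, 33 were added after values of these models had been seen, and the functional groups were drawn up after that too, so counts over groups are raised by selection and are given without a test. Over all models, 8096 of 21174 were called (38.2%) at an adjusted p under 0.05 in edgeR's quasi-likelihood test, 18% higher and 20.2% lower, and the median log2 fold change was -0.01. Of the 458 named models 43.4% were called, and of the 425 whose names did not come from that later addition 40.9% were called. All bifenthrin larvae lay above all controls for 22 of the 458, where 3.1% of all models did so, and below all controls for 27, where 3.24% did so. Names added later are among both counts and raise them.

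Of 45 tested models with entries of DNA replication, chromatin assembly and mitosis, 26 were lower in bifenthrin larvae, 5 were higher and 14 were not called. The called share was 68.9%, beside 38.2% of all models, of which 20.2% were lower and 18% higher. Without the names added later, 16 of 33 were lower and 4 were higher. PCNA, the sliding clamp that holds DNA polymerase on its template, stood between 30.2 and 58.3 CPM (counts scaled to library size; median 44.5) in bifenthrin larvae and between 119 and 250 CPM (median 173) in control larvae. The highest bifenthrin larva lay below the lowest control. The log2 fold change was -2.07 ± 0.15 (SE) with an adjusted p of 1.4e-12 by edgeR. In copper sulfate larvae the same model averaged 132.6 ± 32.7 CPM (SD, n = 11). The log2 fold change of bifenthrin over copper sulfate larvae was -1.62 ± 0.15 (SE, adjusted p = 4.3e-10 in edgeR's quasi-likelihood test), a contrast in which 32% of all models were called.

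The small subunit of ribonucleotide reductase, rrm2, which makes deoxyribonucleotides, was 24.8 to 45.3 CPM (median 37.1) in bifenthrin larvae and 64.9 to 136 CPM (median 95.2) in control larvae. The ranges did not overlap, and the log2 fold change was -1.44 ± 0.12 (SE; adjusted p by edgeR 1.7e-11). DUT, which removes dUTP from the nucleotide pool, was 4.51 to 8.86 CPM in bifenthrin larvae and 15.8 to 32.3 CPM in control larvae, with a log2 fold change of -1.77. DNMT1, which copies DNA methylation onto new strands, was 13.0 to 23 CPM in bifenthrin larvae and 33.4 to 45.6 CPM in control larvae, with a log2 fold change of -1.30. All bifenthrin larvae lay below all controls for both of these models. E2F1, a transcription factor of the entry into S phase, was 1.17 to 3.01 CPM in bifenthrin larvae and 5.62 to 8.92 CPM in control larvae, with a log2 fold change of -1.72.

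Some models of mitosis were lower as well. MKI67, a protein of the surface of mitotic chromosomes and a common marker of dividing cells, was 28.2 to 59.7 CPM (median 50.3) in bifenthrin larvae and 109 to 174 CPM (median 151) in control larvae. The groups did not overlap, and its log2 fold change was -1.71 ± 0.13 (SE; adjusted p by edgeR 8.2e-12). A second model with the MKI67 entry, at about 3 CPM, was not called (log2 fold change -0.10, edgeR adjusted p = 0.71). Topoisomerase Top2a, which untangles chromosomes, was 10.2 to 20.5 CPM in bifenthrin larvae and 28.5 to 58.6 CPM in control larvae, again with no overlap and with a log2 fold change of -1.29. CENPF, a kinetochore protein, was 8.63 to 18.6 CPM in bifenthrin larvae and 28 to 49.8 CPM in control larvae, with a log2 fold change of -1.55. A second model with the CENPF entry was 11.5 to 18 CPM in bifenthrin larvae and 11.4 to 18 CPM in control larvae, and was not called (log2 fold change 0.12). Among the names added later, KIF15 and KIFC1, motors of the mitotic spindle, had log2 fold changes of -1.89 and -1.60, KNL1 of the kinetochore had -1.68, and the clamp loader subunit Rfc2 had -1.62.

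**Figure D1:**
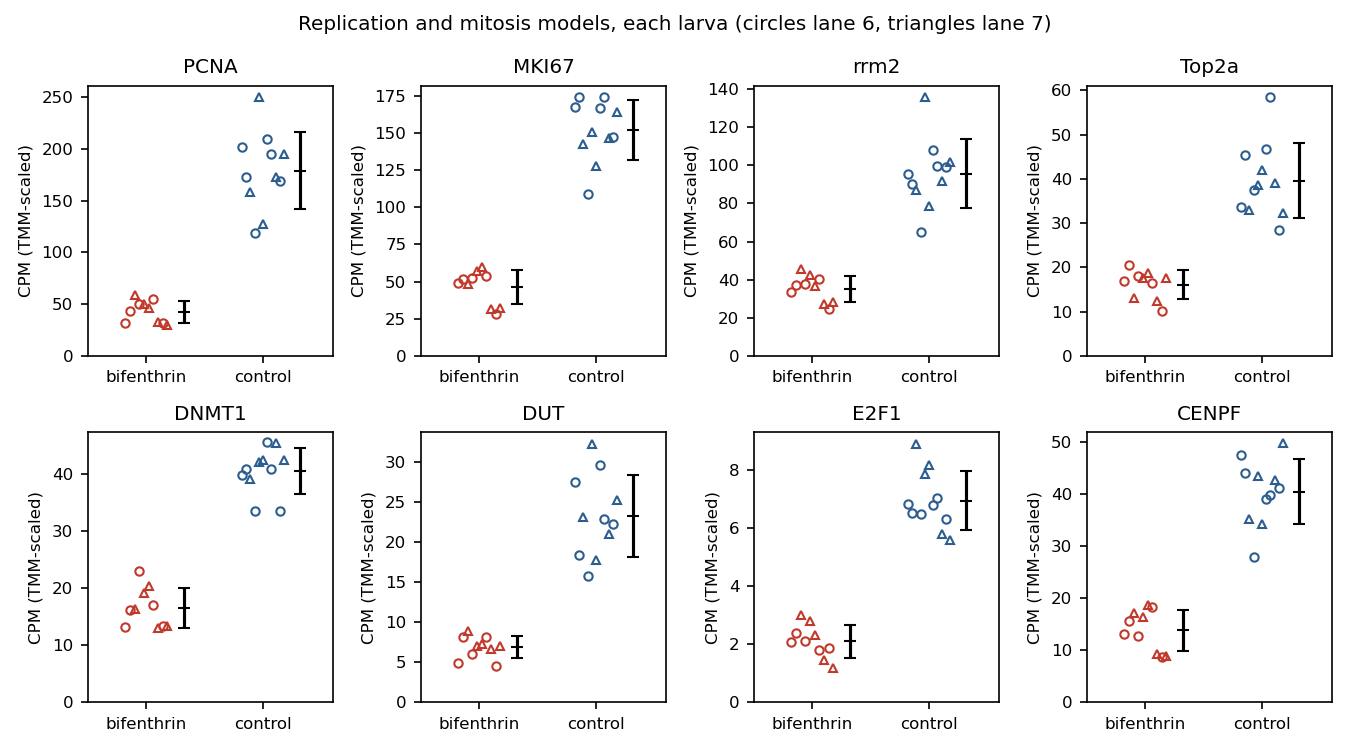
TMM-scaled CPM (y axes, starting at 0) of 8 models of replication and mitosis in each bifenthrin larva (left) and each control larva (right), with the mean and SD beside the points. The 8 models were picked by hand, and all are among the 19 of 45 models of the group in which bifenthrin larvae lie below all controls. In all 8 panels every bifenthrin larva lies below every control larva, as for PCNA, where the highest bifenthrin larva has 58.3 CPM and the lowest control 119 CPM.

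Over all 45 models of replication, chromatin assembly and mitosis the median log2 fold change was -0.63, and it was -0.32 without the names added later. For 19 of the 45 all bifenthrin larvae lay below all controls, where 3.24% of all models did so. Names added later, such as KIF15 and KNL1, are among these 19. Among the models that rose, INCENP, a subunit of the chromosomal passenger complex, had a log2 fold change of 0.65 in 1 model. That model was 189.9 to 260.6 CPM in bifenthrin larvae and 131.8 to 182.5 CPM in control larvae, without overlap. A second model with the INCENP entry, at a median of 1.87 CPM in bifenthrin larvae and 3.01 CPM in control larvae, was not called (-0.88). Another 2 models with the entry of the kinase CIT had log2 fold changes of 0.28 and 0.44. Histone entries differed between models: the 1 called of 5 models with the histone H3-3A entry was 227 to 334 CPM in bifenthrin larvae and 395 to 745 CPM in control larvae, while the other 4 were not called. Models with the histone entries h2ax and H2az1, the latter a name added later, were lower without overlap. Their log2 fold changes were -1.36 for h2ax and -1.78 for H2az1. Summed over the 45 models, the group held 1740 to 2202 CPM in bifenthrin larvae and 2462 to 3653 CPM in control larvae. On average the 5 models with the H3-3A entry made up most of these sums, so the sums say little about the other models. The most abundant of the 5, not called, was 492 to 595 CPM in bifenthrin larvae and 471 to 754 CPM in control larvae. A list for DNA replication and nucleotide synthesis, also chosen with earlier results known, had 3 tested members, PCNA, rrm2 and Top2a. All 3 were lower, where 20.2% of all models were. They are among the 45 models above, so this list is no separate support.

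Among chaperones, which help proteins fold, single members moved in opposite directions. HSPB1, a small heat shock protein of muscle and stressed cells, was 27.9 to 56.7 CPM (median 39.9) in bifenthrin larvae and 0.71 to 10.8 CPM (median 5.05) in control larvae. No bifenthrin larva fell within the range of the controls. The log2 fold change was 2.7 ± 0.29 (SE; adjusted p by edgeR 3.8e-09), and it was 3.18 ± 0.30 against copper sulfate larvae (SE; adjusted p by edgeR 6.1e-10). Dnajb2, a co-chaperone, was 14.2 to 33.7 CPM in bifenthrin larvae and 9.25 to 13.4 CPM in control larvae, with a log2 fold change of 1.1. The inducible Hsp90 hsp90aa1.1 was lower, at 29.1 to 47.5 CPM in bifenthrin larvae and 39.0 to 103 CPM in control larvae (log2 fold change -0.83, edgeR adjusted p = 0.00021), and these ranges overlapped. The abundant Hsp90 hsp90ab1 was 1344 to 1937 CPM in bifenthrin larvae and 1370 to 2004 CPM in control larvae, and was not called (log2 fold change 0.01 ± 0.07, SE). Of the 12 models in this group, 6 were higher and 4 lower, with a median log2 fold change of 0.14. The called share was 83.3%, beside 38.2% of all models. Without the names added later, 5 of 10 were higher and 3 were lower.

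ALPK3, a kinase-like protein of heart and skeletal muscle whose name was among those added later, was 63.4 to 151 CPM in bifenthrin larvae and 17.9 to 28.3 CPM in control larvae. Every bifenthrin larva lay above every control, and the log2 fold change was 2.04 ± 0.13 (SE; adjusted p by edgeR 4.1e-14). Of the 26 models of the muscle group 3 were higher, 2 lower and 21 not called, so that 19.2% were called, beside 38.2% of all models. Only 1 of 23 was higher and 2 were lower without the names added later. SYNPO2, of the muscle Z-disc, was among the lower ones, with a log2 fold change of -0.53.

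Ftcd, a liver enzyme of histidine breakdown and folate metabolism, whose name was among those added later, was 34.7 to 180 CPM (median 59.9) in bifenthrin larvae and 8.84 to 22.1 CPM (median 13.4) in control larvae. The groups did not overlap, and the log2 fold change was 2.46 ± 0.28 (SE; adjusted p by edgeR 1.2e-08). Cytochrome c, cyc, was 212 to 307 CPM in bifenthrin larvae and 129 to 175 CPM in control larvae. Its log2 fold change was 0.79. DLAT, a subunit of the pyruvate dehydrogenase complex, was 120 to 191 CPM in bifenthrin larvae and 73.6 to 115 CPM in control larvae. Its log2 fold change was 0.77. Copper sulfate larvae averaged 322.3 ± 60.9 CPM for cyc and 166.5 ± 28.8 CPM for DLAT (SD, n = 11). The log2 fold change of bifenthrin over copper sulfate larvae was -0.32 ± 0.09 for cyc (SE, edgeR adjusted p = 0.0055). For DLAT it was -0.10 ± 0.10 (SE, edgeR adjusted p = 0.49). ACACB, an acetyl-CoA carboxylase that restrains fatty acid oxidation, had a log2 fold change of 0.72. Of the 18 models in the group of energy and intermediary metabolism 8 were higher and 1, Acly, was lower (-0.32), with a median of 0.28. That made 50% called, beside 38.2% of all models. Acly was among the names added later, and leaving these out gave 7 of 16 higher and 0 lower.

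Keratin krt8, a filament protein of simple epithelia, was 789 to 1264 CPM (median 1103) in bifenthrin larvae and 436 to 640 CPM (median 538) in control larvae, without overlap. Its log2 fold change was 0.95 ± 0.09 (SE; adjusted p by edgeR 2.8e-10). LCAT, which esterifies cholesterol on lipoproteins, had a median of 83.7 CPM in bifenthrin larvae and 30.7 CPM in control larvae, with overlapping ranges and a log2 fold change of 1.33. In the gut and epithelium group 4 of 14 models were higher and 0 lower, so that 28.6% were called, and among lipoprotein models 4 of 11 were higher and 1 lower, or 45.5% called, beside 38.2% of all models.

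**Figure D2:**
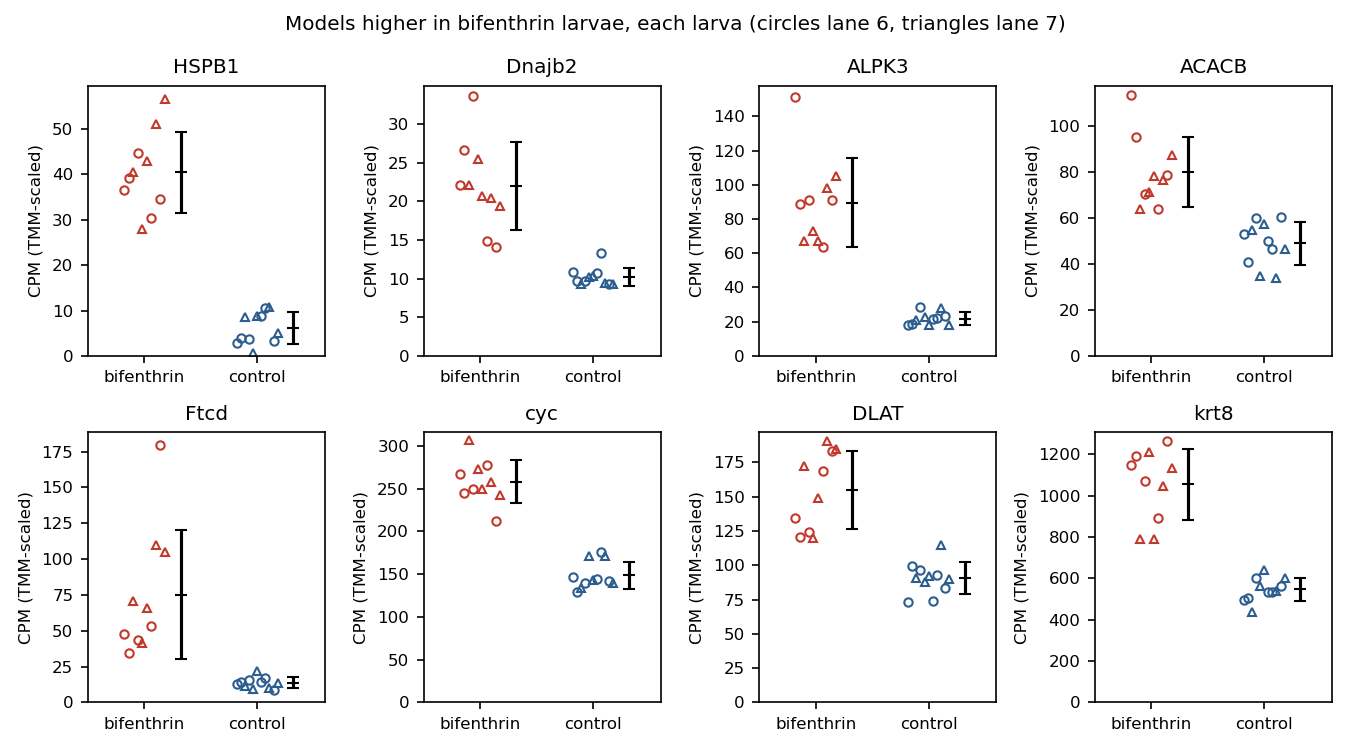
TMM-scaled CPM (y axes, starting at 0) of 8 models with higher values in bifenthrin larvae (left) than in control larvae (right), with the mean and SD beside the points. The 8 models were picked by hand, and all are among the 22 of 458 in which bifenthrin larvae lie above all controls. In all 8 panels every bifenthrin larva lies above every control larva, and for Ftcd the bifenthrin larvae spread from 34.7 to 180 CPM.

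Stress signalling and xenobiotic models changed in both directions. TNFAIP3, an inhibitor of NF-kappa-B signalling, was 18.9 to 27.8 CPM in bifenthrin larvae and 12.7 to 19 CPM in control larvae, with a log2 fold change of 0.61, and Relb, an NF-kappa-B subunit, was 20.5 to 31.1 CPM in bifenthrin larvae and 13.3 to 18.9 CPM in control larvae, with 0.56. DUSP1, a phosphatase that switches off MAP kinases, had 1.19, and TNFRSF12A, a receptor of the TNF family named later, had 1.73, both with overlapping ranges. KLF10, a transcription factor, was lower, with -1.32. In the stress signalling group 11 of 28 models were higher and 4 lower, so that 53.6% were called, beside 38.2% of all models. When the names added later were left out, 9 of 26 were higher and 4 lower. NR1I2, the pregnane X receptor that senses foreign chemicals, had a median of 36.6 CPM in bifenthrin larvae and 25.4 CPM in control larvae, with overlapping ranges (log2 fold change 0.45 ± 0.09, SE; adjusted p by edgeR 0.00027). Superoxide dismutase sod1 had a median of 148 CPM in bifenthrin larvae and 239 CPM in control larvae, without overlap and with a log2 fold change of -0.72. In the group of xenobiotic, redox and metal handling 4 of 11 models were higher and 2 lower, with a median log2 fold change of -0.08. The called share was 54.5%, beside 38.2% of all models.

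Of 39 channel and synapse models, 11 were higher, 2 were lower and 26 were not called. The called share of 33.3% was below the 38.2% of all models, and the median log2 fold change was 0.15. KCNA1, a potassium channel of axons, had a median of 17 CPM in bifenthrin larvae and 8.96 CPM in control larvae, with overlapping ranges (log2 fold change 0.66 ± 0.17, SE; adjusted p by edgeR 0.0019). In lane 7 alone its log2 fold change was 0.37 and it was not called. CNGA3, a cyclic nucleotide-gated channel of cone photoreceptors, had 2 models that moved in opposite directions, with log2 fold changes of 1.16 and -0.66. No sodium channel was among the names held to be certain. Of 20 ribosome and translation models 7 were lower, 1 was higher and 12 were not called, with a median log2 fold change of -0.18. The called share of 40% was near the 38.2% of all models. Leaving out the names added later gave 7 of 19 lower and 0 higher. Rps7, a protein of the small ribosomal subunit, had a log2 fold change of -0.22.

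The entry for beta-actin, actb2, belonged to 2 models that moved in opposite directions. The more abundant was 5198 to 8163 CPM in bifenthrin larvae and 3742 to 5877 CPM in control larvae (log2 fold change 0.54 ± 0.09, SE; adjusted p by edgeR 1.8e-05). The other was 800 to 1142 CPM in bifenthrin larvae and 1075 to 2315 CPM in control larvae (log2 fold change -0.62 ± 0.12, SE; adjusted p by edgeR 0.00013). Reads that match both models could be shared between them, and the counting of such reads is not given in the sources used here.

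**Figure D3:**
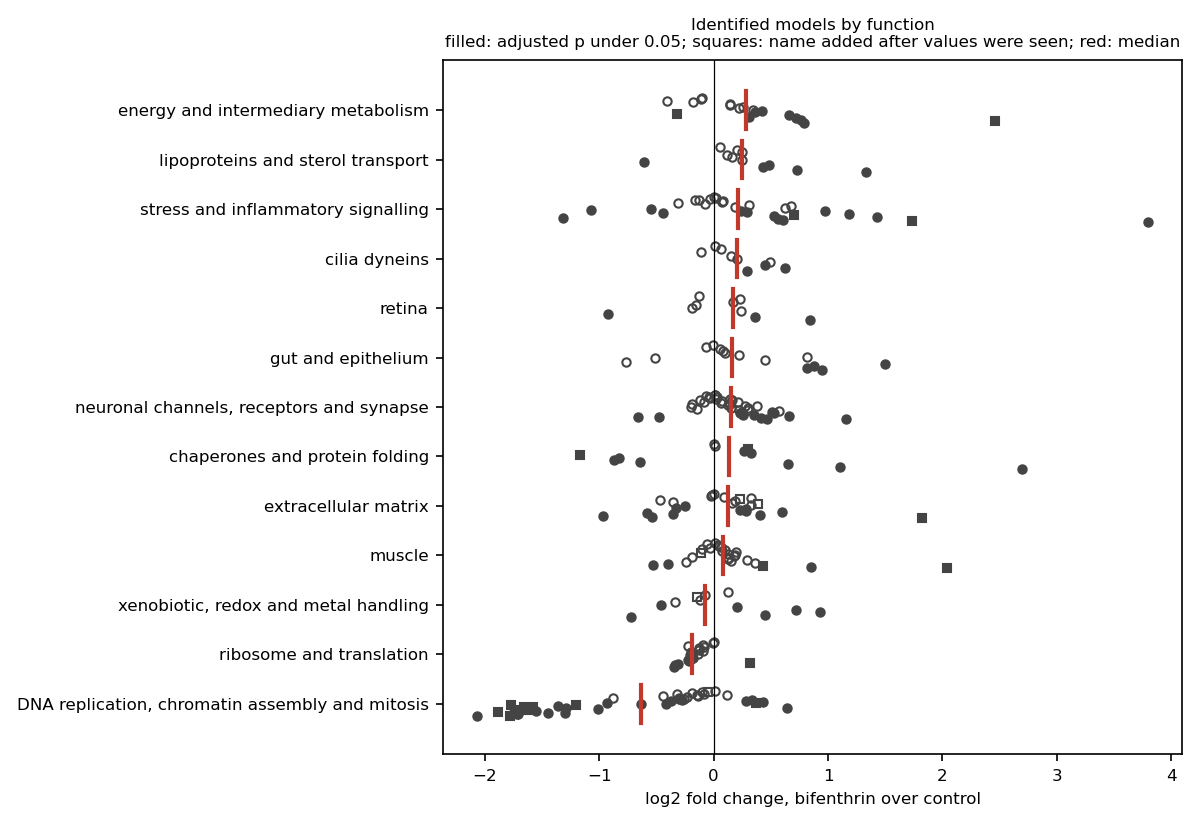
Log2 fold change (x axis, bifenthrin over control) of the identified models in 13 functional groups (rows), filled where the adjusted p was under 0.05 and square where the name was added after values had been seen, with the group median in red. The replication and mitosis row lies furthest to the left, with a median of -0.63, and several of its points at the far left are squares. The remaining 192 identified models fell in none of these groups and are not shown. Of these, 36 were higher and 39 lower, with a median of -0.01. That made 39.1% called, beside 38.2% of all models.

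Of the 30 function lists, 18 had a tested member and 8 had 3 or more. The enzyme class numbers of the table gave members to few of them. Of 14 models annotated as ribonuclease H, an enzyme class that retroelements also encode, 4 were higher and 0 lower, with a median log2 fold change of 0.52. Among all models 18% were higher and 20.2% lower. The most abundant was 1941 to 7277 CPM (median 4090) in bifenthrin larvae and 740 to 3508 CPM (median 1465) in control larvae, so its ranges overlapped. Its log2 fold change was 1.48 ± 0.31 (SE; adjusted p by edgeR 0.00021). Of 17 models annotated as aspartic endopeptidases, a class that includes pepsin and retroviral-type proteases, 1 was higher and 0 were lower. Over all models 38.2% were called in either direction.

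Among models with a mean count of at least 50, the 2 with the smallest p in each direction have no name held to be certain. FMg005786 was 23.3 to 62.4 CPM in bifenthrin larvae and 1.39 to 3.77 CPM in control larvae, and FMg004983 was 26.4 to 51.6 CPM in bifenthrin larvae and 3.83 to 8.49 CPM in control larvae. FMg015439 was 3.86 to 6.20 CPM in bifenthrin larvae and 17.6 to 31.8 CPM in control larvae, and FMg003971 was 4.78 to 13.8 CPM in bifenthrin larvae and 28.5 to 41.3 CPM in control larvae. In all 4 the groups did not overlap.

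The named models were also fitted within each lane of the sequencer. Most were chosen by p, call or fold change over both lanes together, which favours like signs, so like signs are no separate support. PCNA had a log2 fold change of -2.07 in lane 6 and -2.06 in lane 7, and HSPB1 had 2.71 in lane 6 and 2.69 in lane 7. Others differed more: KCNA1 had 0.92 in lane 6 and 0.37 in lane 7, and gapdh had 0.26 in lane 6 and 0.60 in lane 7. For 46 of the 50 named models the sign was the same in both lanes, and the 4 others were the 4 that were not called. The interaction of lane and bifenthrin was called for 0 of all models in edgeR's test. An unadjusted p under 0.05 was found for 715 of 21174 models, fewer than that threshold gives on average without any interaction. Among the 715 were 2 of the 50 named models, FMg004983 and a model with the PKD1 entry.

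**Figure D4:**
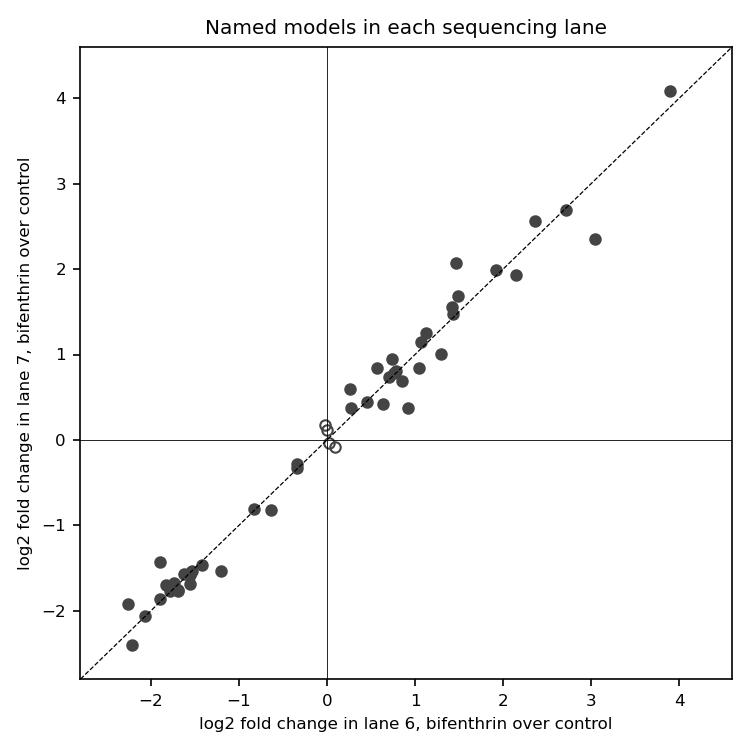
Log2 fold change of the 50 named models in lane 6 (x axis) and lane 7 (y axis), with filled points for called models and the dashed line of equal values. Most points lie near the line, FMg004983 has 3.05 in lane 6 and 2.35 in lane 7, and points of opposite sign sit near 0.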

How the data were processed

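The authors deposited 1 table of raw counts, whole numbers per gene model and larva with nothing normalized. Tools in the submitters' processing notes are STAR, limma and bcl2fastq 2.19.1. Which build, annotation and counter were used is not given in the sources used here. Columns were matched to larvae by the description label.

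Models were filtered with filterByExpr of edgeR 4.0.16 (R 4.3.3), scaled by TMM and fitted over all 32 larvae with group and lane as terms. Contrasts used edgeR's quasi-likelihood test with Benjamini-Hochberg adjustment over 21174 models. SE is the absolute log2 fold change divided by the square root of F. CPM values are TMM-scaled. The biological coefficient of variation was 0.226. On simulated data for bifenthrin against control over 21047 models, the test recovered 62.5% of 1.5-fold changes, 88.8% of 2-fold changes and 100% of 4-fold changes, and 4.73% of its calls were false. Only 200 models were changed there, and larvae were drawn as independent with no lane or beaker effect. These shares therefore need not hold for the deposited counts, where 38.2% of models were called and larvae came from shared beakers.

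The members, lists and groups were chosen with earlier results of these data known. Named models are the 2 with the smallest p in each direction (mean count at least 50), members of the function lists, and up to 15 named proteins in each direction with a mean of at least 1 CPM, those without overlap first; other models were named after their values were seen. That rule asked for proteins annotated by the files or the reference. The table gives accessions only, and the names were supplied from general knowledge, which departs from the rule. Alternatives were DESeq2 1.42.0, its size factors, limma-voom (limma 3.58.1), 2 groups only, a replicate block, single lanes, no lane term, other filters and leaving out each larva. The closest of 210 pairs of larvae still differed 9.87 times more than sampling noise. One result among the models named by the rule is not reported here.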

Additional observations from a re-analysis of the deposited data

Results flagged for a closer look

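Among the bifenthrin larvae, 4 of 50 named models had 1 larva set apart from the rest, by a gap to the next larva that was large for the range of the group (Dixon's test). Chance gives about 1 in 20 such groups. Ftcd had 179.8 CPM in bifenthrin larva 7, where the next was 109.8 CPM. ALPK3 had 151.1 CPM in bifenthrin larva 1, where the next was 104.9 CPM. Rfc2 had 18.81 CPM in bifenthrin larva 14, where the next was 13.45 CPM. IARS1 was lowest in bifenthrin larva 4, with 16.7 CPM, where the next was 22.12 CPM.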

How the results depend on the processing

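The count of higher models was 3820 and of lower models 4276. Without the copper sulfate larvae 3858 were higher and 4011 lower. Lane 7 by itself gave 1880 higher and 2175 lower models, and lane 6 by itself gave 2618 higher and 2660 lower ones. Each of these fits held fewer larvae. Leaving out 1 larva gave 3549 to 3986 higher and 3914 to 4268 lower models, and 24 to 27 lower models of replication and mitosis in place of 26. With the replicate block 3503 were higher and 3587 lower. Deviations of same-numbered larvae from their group means, over all models, had correlations of -0.20 to 0.21 in 10 pairs, with 1 over 0.1. In 1 pair the same-numbered larva was also the best match. Low correlations cannot show that same-numbered larvae shared no handling, and the 2 larvae of each such pair lay in the same lane. Most named models were chosen by p, call or fold change in these same larvae. This favours kept calls, which are therefore no separate support. Of 46 called named models, 40 kept their call in all 31 alternatives that could be fitted for them, and no named model that was called changed sign. The others were KCNA1, gapdh, Tars1, Acly, PLOD1 and the called aspartic endopeptidase model, which lost their calls in 1 or both single lanes, and gapdh also without bifenthrin replicate 2, 7 or 8. PLOD1 lost its call in 12 of the 21 fits that left out 1 larva and in 7 others (both single lanes, limma-voom, the replicate block, 2 groups only, DESeq2 size factors and no filter), with log2 fold changes of -0.33 to -0.25 in these. Models near 1 CPM rest on few counts.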
